A study of Mus musculus with 8 samples.

Results

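The 9 genes described here are non-coding snoRNA host genes, Snhg1, Snhg3, Snhg4, Snhg5, Snhg6, Snhg8, Snhg11, Snhg12 and Gas5, taken by symbol from a fixed list. All 9 had a row among the 16279 genes of the input RNA table, and 8 of them had an adjusted p, as did 12807 genes in all. The cells were N2a, a mouse neuroblastoma line, harvested 48 h after transfection with small interfering RNA. The groups were input RNA after Emg1 knockdown (siEmg1) and input RNA after control knockdown (siCtrl), and m6A immunoprecipitation (IP) after Emg1 knockdown and m6A IP after control knockdown, with 2 libraries each and 8 in all. All 4 groups share the same line, the same transfection reagent and selection of polyadenylated RNA. Nothing in the labels says that the 2 libraries of a group were grown separately, so errors and p-values measure a spread between libraries that may be technical.

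Small nucleolar RNAs (snoRNAs) guide chemical modification and processing of ribosomal RNA. Most mammalian snoRNAs lie in introns and are released when the host transcript is spliced and the intron is trimmed. Box C/D snoRNAs guide ribose methylation and box H/ACA snoRNAs guide pseudouridylation. The exons of the non-coding hosts are joined into polyadenylated RNAs with short or poorly conserved reading frames. Many of these RNAs start with a terminal oligopyrimidine (TOP) tract, as ribosomal protein mRNAs do, and several are kept low by nonsense-mediated decay, which depends on translation. Emg1 encodes an 18S ribosomal RNA methyltransferase, so both the enzyme and the snoRNAs act on the making of the ribosome.

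The annotated starts of the hosts are shown because a TOP tract, if present, would lie there. RefSeq promoters (GRCm38.p6) were available for 7 of the 9 hosts. Each line below runs on the strand of the gene from 40 bases before the annotated start, so that the base after the first 40 is the start. Capitals mark an unbroken run of at least 5 pyrimidines (C or T) with a C within 5 bases of the start, or, for Snhg1 and Snhg5, within 20 bases of it. For Gas5 the second of its annotated starts is shown, and the first, at 161034601, had no such run.
Snhg12 (chr4:132308638-132308697, plus strand): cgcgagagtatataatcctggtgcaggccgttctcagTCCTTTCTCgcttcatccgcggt
Snhg8 (chr3:123508317-123508376, minus strand): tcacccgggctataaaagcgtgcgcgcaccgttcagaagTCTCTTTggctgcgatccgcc
Gas5 (chr1:161035126-161035185, plus strand): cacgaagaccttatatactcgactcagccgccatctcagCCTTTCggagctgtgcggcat
Snhg3 (chr4:132353667-132353726, minus strand): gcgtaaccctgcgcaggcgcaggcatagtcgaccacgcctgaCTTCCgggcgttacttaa
Snhg1 (chr19:8723447-8723506, plus strand): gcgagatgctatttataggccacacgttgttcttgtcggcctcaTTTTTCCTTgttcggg
Snhg5 (chr9:88522878-88522937, minus strand): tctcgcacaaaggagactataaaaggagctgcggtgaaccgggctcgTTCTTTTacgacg

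A pyrimidine run near an annotated start was found in 4 of the 7 hosts (Snhg12, Snhg8, Gas5 and Snhg3), by the search on the gene's own strand with a C within 5 bases. Of 27025 mouse genes with a RefSeq promoter, 33.2% held such a run, and of 15 ribosomal protein hosts with one, 5 did. The longest was that of Snhg12, with 9 pyrimidines beginning 3 bases before the start. That of Snhg3 began 2 bases after the start, where the base was G, and that of Gas5 was at its second annotated start only. With a C allowed within 20 bases the count was 6 of 7, and 66.1% of all genes met that wider rule. Snhg11, a host known for its expression in neurons, had no such run under either rule. The letters TATAAA stood on the gene's strand in the 50 bases before the start of Snhg5 and Snhg8, 2 of 7 hosts, against 3.15% of all genes. These matches describe annotated starts and were not set against measured starts in N2a cells.

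In the authors' deposited table, Emg1 stood at 30.2% of control in input RNA, at a log2 fold change of -1.73 ± 0.11 (SE) with a DESeq2 adjusted p of 3.37e-54. The file names no direction, and this sign is why all fold changes here are read as knockdown over control. Rows of sympathoadrenal genes were present for 11 of 12 markers, with mean normalized counts between 42.6 and 13352 in the authors' deposited table. Leukocyte markers had 2 rows of 4, with means of 2.97 and 15.4. Fibroblast, glial and endothelial markers had 3 of 5, 4 of 4 and 2 of 3 rows, led by Pdgfra at 1357, Mbp at 688 and Pecam1 at 407 in the authors' deposited table. None of the 6 marker genes with an adjusted p in those 3 lists passed. Of the 11 sympathoadrenal genes 7 rose and 2, Th and Stmn2, fell; the part of cell state or of other cells in the host results was not tested. The table gives 1 mean over all libraries for each gene and no value per library, so depth per library is unknown, and fewer cells expressing a gene cannot be told apart from less RNA per cell.

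Most of the hosts were lower after Emg1 knockdown. By the authors' DESeq2 adjusted p under 0.05, 5 of the 8 tested hosts fell (Snhg12, Snhg5, Snhg1, Snhg6 and Gas5) and 0 rose, whereas 15.5% of all tested genes fell, 17.1% rose and 32.6% did either. The remaining 3, Snhg3, Snhg4 and Snhg8, did not pass. All 8 had a negative log2 fold change, as did 50.2% of all tested genes. Their median log2 fold change was -0.29, which is 82.1% of control, and that of all tested genes was -0.002.

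**Figure D1:**
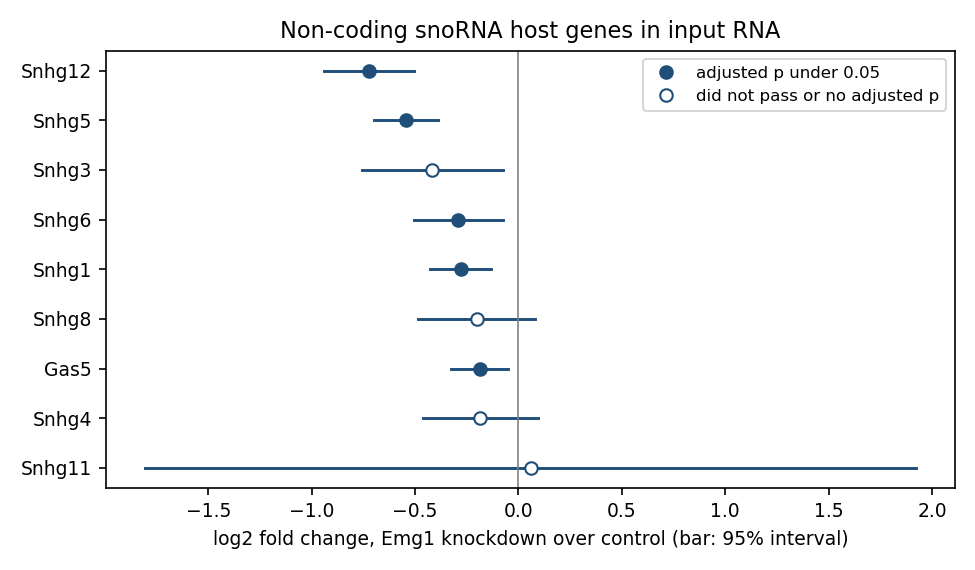
Log2 fold change of each host gene in input RNA, Emg1 knockdown over control, with 95% intervals from the authors' SE. Filled points have an adjusted p under 0.05; the 5 filled points lie between -0.72 and -0.19, and the interval of Snhg11 spans -1.81 to 1.92.

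Snhg12 stood at 60.7% of control (95% interval 52.1 to 70.6%), the lowest of the hosts, with a log2 fold change of -0.72 ± 0.11 (SE) and an adjusted p of 2.36e-09 in the authors' deposited table. It lies at chr4:132308678-132311024 and holds 4 annotated snoRNA genes of both box classes. Only 4.38% of all tested genes had a lower log2 fold change. Snhg5, host of the box C/D snoRNA U50, lies at chr9:88521052-88522897. It stood at 68.5% of control (61.6 to 76.3%), at -0.54 ± 0.08 with an adjusted p of 1.31e-10 in the authors' deposited table. These were the only 2 hosts past an absolute log2 fold change of 0.5.

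Snhg1 lies at chr19:8723487-8726326 and holds 8 annotated snoRNA genes, among them Snord22 (U22), which is needed for 18S ribosomal RNA processing in Xenopus. It stood at 82.4% of control (74.4 to 91.1%), with a log2 fold change of -0.28 ± 0.07 and an adjusted p of 0.00108 in the authors' deposited table. Snhg6, host of Snord87, lies at chr1:9942025-9944118. It was at 81.7% of control (70.4 to 94.9%), at -0.29 ± 0.11 with an adjusted p of 0.0284 in the authors' deposited table. Gas5, growth arrest-specific 5, is known to build up when growth and translation stop. It lies at chr1:161034601-161038539 and also holds 8 annotated snoRNA genes. The authors' deposited table put it at -0.19 ± 0.07, which is 87.8% of control (79.8 to 96.5%), with an adjusted p of 0.0249. The changes of Snhg1, Snhg6 and Gas5 were thus small, and those of Snhg6 and Gas5 did not pass at an adjusted p of 0.01.

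Snhg3, at chr4:132351933-132353686, hosts Snora73a and Snora73b (U17), which take part in 18S ribosomal RNA processing. Its log2 fold change of -0.42 ± 0.17 was the third lowest, at 74.9% of control (59.2 to 94.9%), and its adjusted p of 0.0506 was just outside the threshold in the authors' deposited table. It passed at 0.0452 when p-values were adjusted over the 11134 genes with a mean of at least 100, and at 0.0460 when fold changes were centred on the median of those genes. With Benjamini-Hochberg adjustment over all genes its adjusted p was 0.0639 and it did not pass. Snhg8, host of Snora24 at chr3:123507552-123508336, had -0.20 ± 0.14 with an adjusted p of 0.299 in the authors' deposited table. Snhg4, host of Snora74a at chr18:35553410-35558316, had -0.18 ± 0.14 with an adjusted p of 0.344 in the authors' deposited table. Their intervals, 71.5 to 106% and 72.5 to 107% of control, hold both no change and a fall as large as that of Snhg1. Snhg11, at chr2:158375713-158386474, had a mean normalized count of only 11.4 and a log2 fold change of 0.06 ± 0.95, with no adjusted p in the authors' deposited table. Its interval ran from 28.6 to 379% of control.

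The intervals of most pairs of hosts overlapped. Of the 28 pairs among the 8 tested hosts, 5 had 95% intervals that did not overlap, a count that was not set against pairs of other genes: Snhg12 with each of Snhg1, Snhg4, Snhg8 and Gas5, and Snhg5 with Gas5. The interval of Snhg12 ran from -0.94 to -0.50 and that of Gas5 from -0.32 to -0.05 on the log2 scale. The 4 hosts of box C/D snoRNAs only (Snhg1, Snhg5, Snhg6 and Gas5) were all among those that fell, and of the 3 tested hosts of box H/ACA snoRNAs only (Snhg3, Snhg4 and Snhg8) none passed. The ranges of the log2 fold changes overlapped, -0.54 to -0.19 for the first and -0.42 to -0.18 for the second. The mean normalized counts did not overlap, at 1058 to 4735 for the box C/D hosts and 362 to 709 for the box H/ACA hosts in the authors' deposited table. The SE was 0.07 to 0.11 in the first and 0.14 to 0.17 in the second, and a difference between the box classes was not tested. Mean counts are not divided by transcript length, so they show the reads behind each value and not which host was more abundant.

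**Figure D2:**
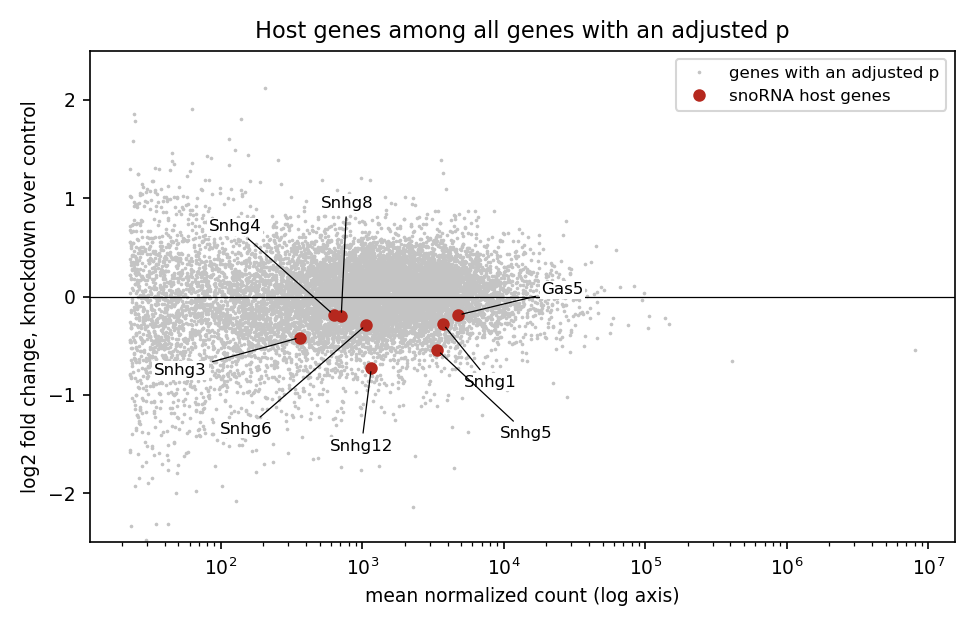
Log2 fold change (knockdown over control) against mean normalized count (log axis) for genes with an adjusted p, with the 8 tested hosts in red. All 8 hosts lie below 0, at means between 362 and 4735; 2 genes fall outside the plotted range of ± 2.5.

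The snoRNAs carried in these hosts were partly visible as rows of their own. RefSeq places 29 snoRNA genes inside the spans of the 9 hosts, and 8 of them, in 5 hosts, had a row with an adjusted p. All 8 had a negative log2 fold change, with a median of -0.63. By the adjusted p 2 of the 8 fell, beside 15.5% of all tested genes. Snord22, inside Snhg1, had the highest mean of the named snoRNA rows, 2791, and stood at 57.6% of control, at -0.80 ± 0.10 with an adjusted p of 7.08e-13 in the authors' deposited table. The upper bound of its 95% interval, -0.59, lay below the lower bound of its host's, -0.43. Snora44, inside Snhg12, stood at 43.5% of control, at -1.20 ± 0.31 with an adjusted p of 0.00066 in the authors' deposited table, and its interval overlapped that of the host.

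The intervals of the other 6 snoRNA rows of these hosts overlapped those of their hosts. Of the 8 snoRNA rows, 4 had a lower log2 fold change than the host: Snord22, Snora44, Snora74a and Snord87. Those of Snora16a, Snora61, Snord99 and Snord47 were higher than the host's. A shared direction of snoRNA against host was not tested. Snora16a, Snora61 and Snord99, which share Snhg12 with Snora44, had log2 fold changes of -0.62 ± 0.48, -0.40 ± 0.24 and -0.12 ± 0.42 in the authors' deposited table. Snora74a in Snhg4 had -0.71 ± 0.48, Snord87 in Snhg6 had -0.64 ± 0.68 and Snord47 in Gas5 had -0.01 ± 0.55 in the authors' deposited table. None of these 6 passed. Among the other 52 named snoRNA rows with an adjusted p, 24 had a negative log2 fold change, and the median was 0.10. Of these 52 rows 1 fell and 2 rose, beside 15.5% and 17.1% of all tested genes. The one that fell was Snord15a, which lies in the span of Rps3, at -0.52 ± 0.16, and those that rose were Snora65, in the span of Rpl12, at 0.51 ± 0.16 and Snord19, in the span of Gnl3, at 1.85 ± 0.75 in the authors' deposited table. These rows were chosen after their values were seen. In libraries of polyadenylated RNA, reads within a snoRNA gene can come from the mature snoRNA or from unspliced host RNA, and these cannot be told apart in a table of gene rows. The sources used here do not say whether the row of a host includes such reads.

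**Figure D3:**
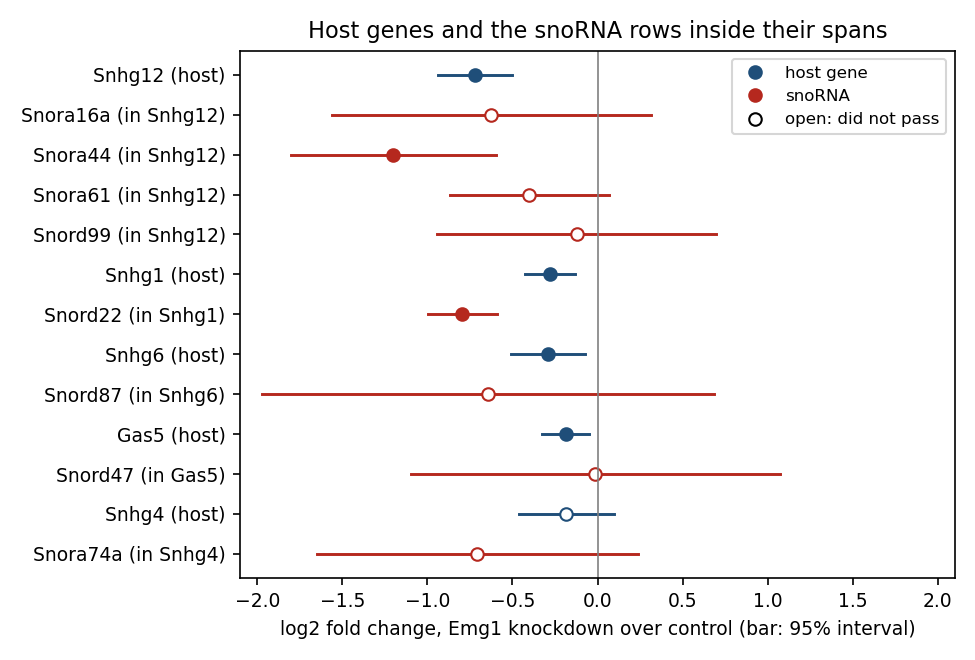
Log2 fold change (knockdown over control) with 95% intervals of 5 host genes (blue) and of the 8 snoRNA rows inside their spans (red); open points did not pass. Snord22 lies left of its host Snhg1 with no overlap of the intervals, and the other snoRNA intervals overlap those of their hosts.

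Of the tested genes next to the hosts on the chromosome, 1 of 13 fell and 2 rose, beside 15.5% and 17.1% of all tested genes. The nearest RefSeq gene on each side and any overlapping gene came to 22 neighbours, of which 18 had a row and 13 an adjusted p. Some lay far off, such as Syncrip, 38461 bases from Snhg5. The 13 include Snhg17 and Ralgapb, which neighbour only Snhg11, a host with no adjusted p. Among those 13, 2 rose and 10 did not pass, and the median was 0.03 on the log2 scale. The one that fell was Trnau1ap, a factor of selenocysteine tRNA, which lies 739 bases beyond the end of Snhg12 and had -0.50 ± 0.09 with an adjusted p of 1.89e-06 in the authors' deposited table. Snhg1 lies 118 bases from Slc3a2, which encodes the heavy chain of an amino acid transporter. Slc3a2 had -0.10 ± 0.05 with an adjusted p of 0.153, and Wdr74, on the other side of Snhg1, had 0.00 ± 0.09 in the authors' deposited table. Snhg3 lies between Rcc1, a nucleotide exchange factor of Ran, at 0.11 ± 0.07 (adjusted p 0.227), and Phactr4, which rose by 0.30 ± 0.09 (adjusted p 0.00676) in the authors' deposited table. Syncrip, the neighbour of Snhg5, had 0.09 ± 0.07, and Matr3, the neighbour of Snhg4, had 0.03 ± 0.06 in the authors' deposited table; neither passed.

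Zbtb37, which overlaps Gas5, had 0.25 ± 0.19 and Cenpl, near Gas5, had -0.30 ± 0.19 in the authors' deposited table, and neither passed. Snhg11 lies between Snhg17, at 0.11 ± 0.10, and Ralgapb, which rose by 0.22 ± 0.07 with an adjusted p of 0.015 in the authors' deposited table. The microRNA gene Mir1949 overlaps Snhg4 and had -0.52 ± 0.31 (adjusted p 0.186) in the authors' deposited table. Mcmdc2, which overlaps Snhg6, Sgk3, Prss12, Rab42 and Serpinc1 had a mean of at most 15.6 and no adjusted p. The library kit keeps strand, but the sources used here do not say whether counting did, so values of overlapping genes are uncertain.

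**Figure D4:**
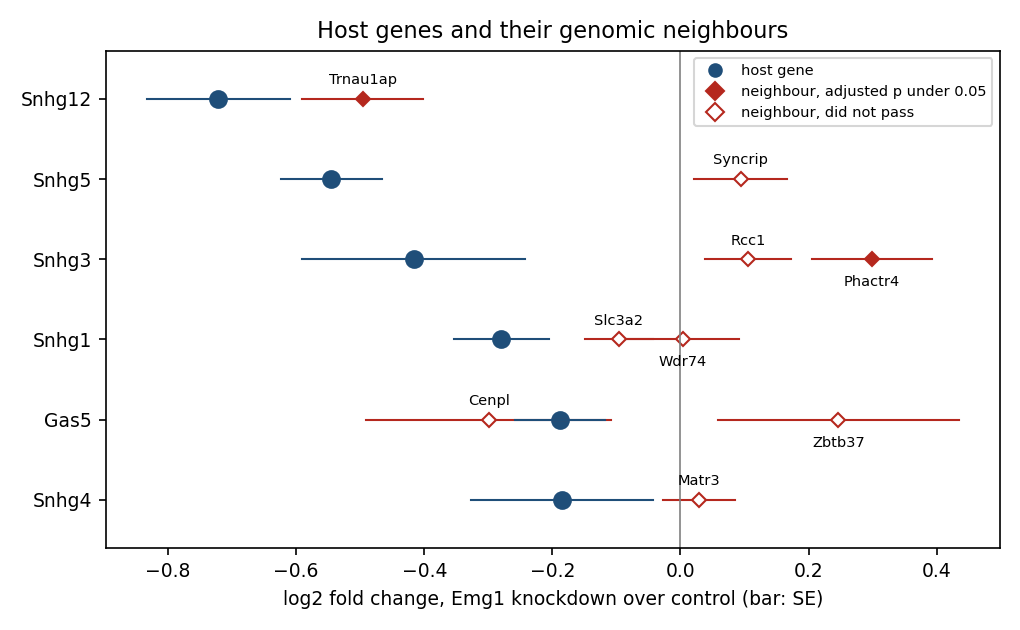
Log2 fold change (knockdown over control, bars SE) of Snhg12, Snhg5, Snhg3, Snhg1, Gas5 and Snhg4 (blue circles) and of the protein-coding neighbours of these hosts that are named above and had an adjusted p (red diamonds, filled where the adjusted p was under 0.05). Trnau1ap, next to Snhg12, is the one filled neighbour below 0, and Phactr4, next to Snhg3, is the filled one above 0; Snhg11 and its neighbours are not plotted.

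Among other listed non-coding hosts 15.4% fell and 15.4% rose, near the 15.5% and 17.1% of all tested genes. Of 15 further non-coding hosts listed from general knowledge, 13 had an adjusted p: 2 rose, 2 fell and 9 did not pass, and the median was 0.11 on the log2 scale. Zfas1 (row 1500012F01Rik) fell by 0.81 ± 0.07 with an adjusted p of 3.21e-31, and Snhg7 fell by 0.52 ± 0.15 with an adjusted p of 0.00357 in the authors' deposited table. Snhg15 (row Gm11974) rose by 0.47 ± 0.10 and Meg3, an imprinted RNA, rose by 1.39 ± 0.23 in the authors' deposited table. Membership of this list, that of Meg3 included, was not checked against annotated snoRNA genes. When non-coding hosts were instead taken as RefSeq long non-coding genes whose span holds a named snoRNA gene, without the 9 hosts, 3 of 12 fell and 2 rose.

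Among protein-coding hosts, those that encode ribosomal proteins were mostly lower. Of 23 such hosts, 16 fell and 1 rose, beside 15.5% and 17.1% of all tested genes. Their median was -0.29 on the log2 scale. In the authors' deposited table Rpl13a fell by 0.56 ± 0.05, Rpl3 by 0.58 ± 0.05 and Rps20 by 0.57 ± 0.06, and Rps2, named after its value was seen, rose by 0.29 ± 0.09. The other 21 protein-coding hosts were divided, with 6 that fell, 6 that rose and a median of 0.03. Nop56, Nop58 and Dkc1 are among these 6 that rose and are counted again below as box C/D or box H/ACA core proteins. All 44 together gave 22 that fell and 7 that rose, with a median of -0.14. Taken by RefSeq spans instead, 23 of 63 protein-coding hosts of a named snoRNA fell and 18 rose, with a median of -0.002. Reads of ribosomal protein genes can be shared with close pseudogene copies, which makes those values uncertain.

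Genes for the proteins that package and mature snoRNAs were higher more often than lower. Of the 4 box C/D core proteins, Nop56, Nop58 and the methyltransferase Fbl rose, by 0.36 ± 0.06, 0.25 ± 0.06 and 0.19 ± 0.06, and Snu13 (row Nhp2l1) had 0.05 ± 0.06 with an adjusted p of 0.562 in the authors' deposited table. Of the 4 box H/ACA core proteins, the pseudouridine synthase Dkc1, Nhp2 and Gar1 rose, by 0.33 ± 0.08, 0.27 ± 0.07 and 0.25 ± 0.09, and Nop10 fell by 0.35 ± 0.10 in the authors' deposited table. Of 11 assembly factors, 4 rose and 0 fell, with a median of 0.12. They were the nucleolar phosphoproteins Nolc1 and Tcof1, at 0.63 ± 0.06 and 0.60 ± 0.07, the box C/D assembly factor Znhit6 at 0.51 ± 0.08, and Rpap3 at 0.28 ± 0.09 in the authors' deposited table. Of 7 genes of the nuclear exosome and snoRNA trimming, 3 rose and 1 fell, with a median of 0.15. The exonuclease genes Exosc10 and Dis3 rose by 0.49 ± 0.07 and 0.47 ± 0.09 and the helicase gene Mtrex (row Skiv2l2) by 0.27 ± 0.07, while in the authors' deposited table the deadenylase gene Parn, which trims H/ACA RNA ends, fell by 0.41 ± 0.10.

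No member fell in the lists of nonsense-mediated decay, exon junction complex, cytoplasmic 5′ decay and TOP-binding genes. Whether these genes act on the host RNAs in N2a cells was not tested. Of 12 nonsense-mediated decay factors, 5 rose, with a median of 0.20; the helicase gene Upf1 rose by 0.53 ± 0.07, Upf2 by 0.31 ± 0.09 and the kinase gene Smg1 by 0.20 ± 0.06 in the authors' deposited table. Of 5 exon junction complex genes, 1 rose, Casc3 at 0.35 ± 0.07 in the authors' deposited table, and the median was 0.10. In the list of cytoplasmic decay from the 5′ end, 3 of 10 rose, with a median of 0.12: the decapping scaffold gene Edc4 at 0.58 ± 0.07, the exonuclease gene Xrn1 at 0.46 ± 0.10 and the decapping enzyme gene Dcp2 at 0.29 ± 0.07 in the authors' deposited table. Of 7 genes listed from general knowledge for proteins that bind TOP RNAs, 4 rose in RNA, with a median of 0.26. Larp1, which binds the capped TOP tract, rose by 0.42 ± 0.05, Pabpc1 by 0.36 ± 0.05, Larp4b by 0.33 ± 0.06 and Larp4 by 0.26 ± 0.08 in the authors' deposited table. These counts, and those of the genes that package and mature snoRNAs, stand beside 17.1% of all tested genes that rose and 15.5% that fell. The lists were not tested as sets.

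**Figure D5:**
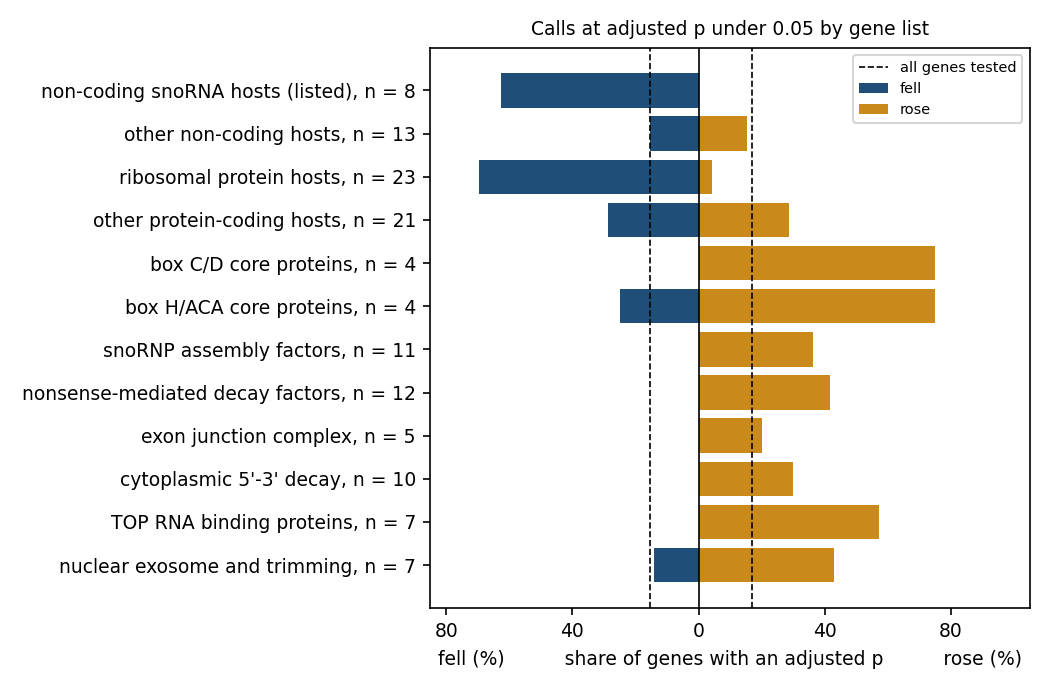
Share of genes with an adjusted p that fell (left of 0) or rose (right of 0) in each list, in percent, with dashed lines for all tested genes (15.5% fell, 17.1% rose). The 9 listed hosts (8 tested) and the ribosomal protein hosts extend to the left, and the snoRNP, decay and TOP-binding lists extend mainly to the right. Nop56, Nop58 and Dkc1 count both as other protein-coding hosts and as core proteins.

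No differential m6A peak was found on any of the 9 hosts. In the authors' deposited table of 2114 differential peaks, 0 were named for a host and 0 overlapped the span of one, while 14.8% of all genes with an adjusted p carried at least 1 differential peak. The table lists differential peaks only, so it does not say whether the host RNAs carry m6A. The one peak on a further non-coding host was on Snhg7, at mm10 chr2:26637176-26637413 on the minus strand, and it begins at the lower end of the gene's span, which runs to 26640244. Its change was 0.81 on the log2 scale, with the numerator not named in the file, and its false discovery rate was 4.79e-06 in the authors' deposited table. Its fold enrichment of IP over input was 1.38, against a median of 5.53 over all the differential peaks, and 3.5% of the peaks had a lower one. Differential peaks were carried by 5 of the 44 protein-coding hosts, 5 of the 11 snoRNP assembly factors, 1 of the 4 box C/D and 0 of the 4 box H/ACA core proteins, and 0 of the 7 genes of the nuclear exosome and snoRNA trimming. Among the cytoplasmic lists, 3 of the 7 TOP-binding genes, 2 of the 12 nonsense-mediated decay factors, 2 of the 5 exon junction complex genes and 1 of the 10 genes of 5′ decay carried one.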

How the data were processed

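The submitters' processing notes name Trimmomatic, HISAT2, DESeq2 and the mm10 build; versions, the read counter and the peak caller were not given in the sources used here. Both tables hold the authors' own comparisons. Per the file headers, the mean is a signal (mean normalized count), and the fold change and its standard error are log2 values. The Wald statistic is a score deposited by the authors. The authors deposited a p-value and an adjusted p-value for each gene, and blank adjusted p-values were kept blank. In the peak table, fold enrichment is a ratio deposited by the authors.

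No model was refitted, and calls use the authors' adjusted p under 0.05. Intervals are the log2 fold change ± 1.96 SE. The 9 members and all lists were chosen with earlier results of these data known. The genes named were all members, neighbours with a row, peaks on non-coding hosts and, of each list, up to 4 called genes by smallest adjusted p; exceptions are marked in the text, and a few genes that this rule names are not reported here. Older symbols of RefSeq (GRCm38.p6) matched 8 list genes, and RefSeq also gave spans, neighbours and promoters. The adjustment of p-values was tested on simulated data. Tools were pandas 2.3.3, numpy 2.4.6, matplotlib 3.10.9 and scipy 1.17.1, run in Python 3.11.15.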

Additional observations from a re-analysis of the deposited data

How the results depend on the processing

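The number of hosts that fell was 5 at an adjusted p under 0.05, 3 at 0.01 (Snhg1, Snhg5 and Snhg12), and 2 when an absolute log2 fold change of at least 0.5 was also required (Snhg5 and Snhg12). It was 6, with Snhg3 added, at 0.10, with centring, and among genes whose mean was 100 or more, and 5 with adjustment over all genes; the number that rose was 0 in each. The median log2 fold change of the hosts stayed between -0.29 and -0.28. Peaks on hosts stayed at 0 with a false discovery rate under 0.01, a fold enrichment of at least 2, or overlap of spans. Counts of the 10 related lists at 0.01 and with adjustment over all genes stayed within 1.5 times. Requiring at least 7 pyrimidines left 2 of 7 hosts with a run (Snhg12 and Snhg8), and 14.8% of all genes. The snoRNA rows and the TATAAA search were added after seeing the data. The split of the hosts by box class was not planned either, nor was that of protein-coding hosts into ribosomal protein and other genes. Hosts by RefSeq spans were planned on the same strand, but strand was not used. No paired analysis was possible because the tables hold no values per library, and leaving out a replicate could not be run for the same reason. The SE of Snhg11 (0.95) and of most snoRNA rows limits what they can show.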
